A study of Sus scrofa with 9 samples.

Results

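The DDX and DHX genes encode RNA helicases of the DEAD-box and DEAH-box type, and 46 of them were found among the 22342 gene identifiers of the pig testis tables, of which 14749 carried a symbol. They were chosen by symbol alone, as every gene whose name begins with DDX or DHX and a digit, except DDX4. There were 30 DDX and 16 DHX genes. All 46 passed the filter on low counts that 16802 genes passed, DDX60 only through its counts in round spermatids. The family members DDX10, DDX17, DDX19A, DDX3Y, DDX43 and DDX53 matched none of the symbols and were left out. The members lay on 18 chromosomes of Sscrofa11.1, with 8 on chromosome 14, 7 on chromosome 12 and a single one, DDX3X, on the X.

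These enzymes use ATP to open short RNA duplexes or to strip proteins from RNA, and each works at its own step in the life of an RNA: the spliceosome, the nucleolar assembly of ribosomes, export, the start of translation, storage or the sensing of foreign RNA. Germ cells depend on them in a particular way, because transcription stops as the spermatid nucleus condenses and messages made earlier have to be stored and translated later. In mice, loss of the testis helicase DDX25 stops sperm formation at the round spermatid stage.

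The RNA came from porcine testis cells of 3 stages, with 3 libraries each. Spermatogonia (libraries 1, 2 and 3) are the dividing cells before meiosis, and spermatocytes (libraries 2, 3 and 4) the cells in meiosis. Round spermatids (libraries 1, 2 and 3) are the haploid cells that follow. Columns of spermatogonia were headed with the KIT receptor and those of spermatocytes with the pachytene stage. The study was designed to relate gene activity to chromatin folding in sperm formation, and every pair of stages was compared. The labels give tissue and cell type only, with no animal, age, breed, treatment or way of isolating the cells, so the replicates may be technical in part and a p-value measures the spread between these libraries.

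Library totals ran from 47963279 to 64639201 estimated counts. The 3 spermatogonia libraries were nearly alike, with a median chi-square per gene of 0.802 to 0.863 between pairs where counting alone gives 0.455, against 5.12 to 10.8 between spermatocyte pairs. Round spermatids 2 stood apart, at 20.9 and 22.6 from the other spermatid libraries, which differed from each other by 2.28. Summed spermatocyte markers (10 genes) reached 1307 to 1362 CPM in spermatogonia, 2751 to 3153 in spermatocytes and 466 to 547 in round spermatids. Summed spermatogonial markers (8 genes) were highest in round spermatids, against the label, at 94.8 to 98.7 CPM in spermatogonia, 36.1 to 47.6 in spermatocytes and 147 to 206 in round spermatids. By gene the list was mixed. By the test used below 3 were higher and 3 lower in round spermatids against spermatogonia, beside 39.5 and 39.7% of all genes. In spermatocytes against spermatogonia 0 were higher and 6 lower, beside 29.3 and 44.0%. Markers of late germ cells (12 genes) summed to 3121 to 3190, 1363 to 2747 and 5788 to 8278 CPM in the same order of stages. By gene, 4 of them were higher and 5 lower in round spermatids against spermatogonia, with a median log2 fold change of -0.18. Somatic markers also moved with stage. Leydig cell genes (9) summed to 354 to 381 CPM in spermatogonia, 14.2 to 17.9 in spermatocytes and 66.8 to 77.7 in round spermatids. Smooth muscle genes of the tubule wall summed to 40.2 to 41.9, 25.5 to 37.6 and 4776 to 5745 CPM. All 8 of them were higher in round spermatids than in spermatocytes, beside 42.7% of all genes. Sertoli genes (11, of which AMH and GATA1 were at 0 in every spermatocyte library) summed to 71.6 to 75.7 CPM in spermatogonia, 32.7 to 50.2 in spermatocytes and 244 to 329 in round spermatids. Endothelial genes (4) summed to 9.19 to 10.7, 4.58 to 16.8 and 166 to 190 CPM, and leukocyte genes (8) to 8.75 to 8.97, 4.58 to 7.00 and 33.3 to 40.2 CPM, in the same order. Their part in the helicase values was not tested, and in such bulk samples fewer cells of a type and less RNA per cell cannot be told apart.

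Levels are given as CPM on TMM-scaled libraries when stages are compared, and as TPM, which is per length, when genes are compared. The family as a whole made up a small share of the deposited TPM, at 0.449 ± 0.00454% in spermatogonia, 0.398 ± 0.0205% in spermatocytes and 0.260 ± 0.0661% in round spermatids (SD, n = 3 each). Among the spermatid libraries the share was 0.220, 0.336 and 0.224%, so that library 2 stood nearer to the spermatocytes. On the CPM scale the family summed to 5681 ± 9.01, 7058 ± 506 and 4388 ± 125 CPM, which places spermatocytes above spermatogonia where TPM places them below.

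A few helicases held most of the family's transcripts, and their order changed with stage. DDX5, a cofactor of splicing, transcription and microRNA processing, was the most abundant at every stage, with 902 ± 18.3 TPM in spermatogonia, 1118 ± 47.1 in spermatocytes and 869 ± 253 in round spermatids (SD, n = 3 each). Its share of the family's TPM was 20.8% in spermatogonia, 29.1% in spermatocytes and 37.1% in round spermatids. DDX24, a nucleolar helicase, came next at each stage, with 733 ± 13.9, 638 ± 40.5 and 203 ± 34.9 TPM. In round spermatids its lead in mean TPM over DDX3X, in place 3, was within the spread between libraries. It was ahead within each library, with 9.41, 7.84 and 9.28% of the family's TPM in round spermatids 1, 2 and 3. DDX3X had 8.37, 7.47 and 8.25% there. DDX25, DHX30 and DDX39A followed in spermatogonia with 326 ± 6.46, 274 ± 5.66 and 225 ± 4.93 TPM. In spermatocytes the next places went to DDX25 with 266 ± 25.6, DDX39A with 202 ± 28.4 and DHX9 with 148 ± 9.86 TPM. In round spermatids they went to DDX3X with 186 ± 40.0, DDX25 with 84.3 ± 35.2 and DDX21 with 81.4 ± 13.3 TPM, and the last 2 did not differ beyond their spread. The 5 leading genes held 56.6, 61.8 and 61.0% of the family's TPM at the 3 stages. The number of members over 10 TPM was 37 in spermatogonia, 31 in spermatocytes and 29 in round spermatids.

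**Figure D1:**
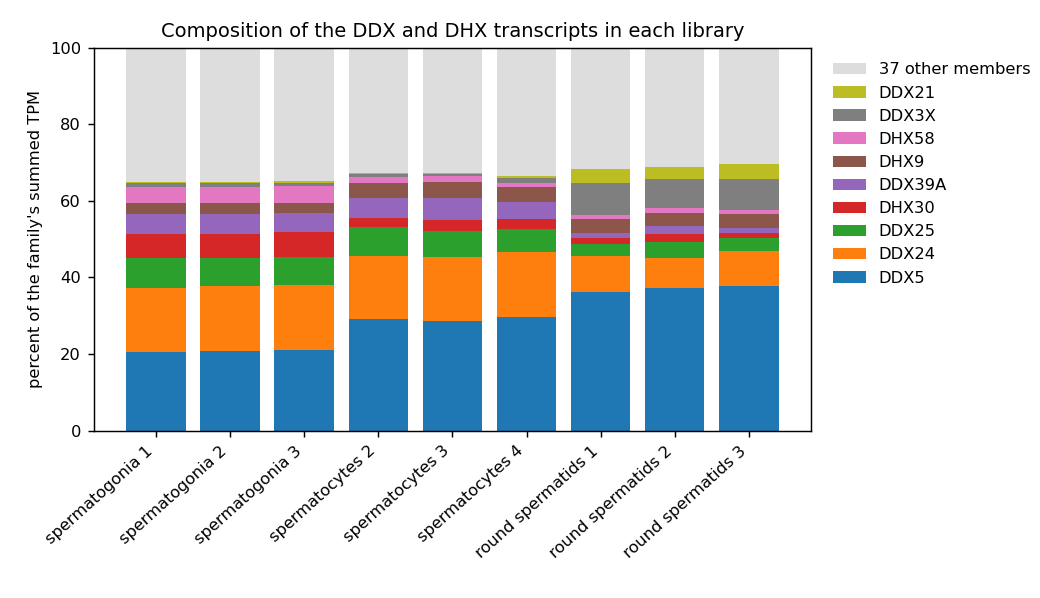
Share of the family's summed TPM (percent, vertical axis) taken by each of 9 members and by the other 37 in each library; each bar is 1 library, in stage order. DDX5 takes 20.8% on average in spermatogonia and 37.1% in round spermatids, while the DDX3X and DDX21 bands are widest in the 3 round spermatid bars.

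Meiosis came with a mixed change and the spermatid stage with a mostly downward one. In spermatocytes against spermatogonia 18 of the 46 members were higher and 14 lower by edgeR's quasi-likelihood test with Benjamini-Hochberg adjustment, or 39.1 and 30.4%, beside 29.3% and 44.0% of all genes tested. Together 32 members were called, beside 73.4% of all genes. At the next step, in round spermatids against spermatocytes, 8 were higher and 28 lower, or 17.4 and 60.9%, beside 42.7% and 36.4% of all genes, and 79.2% of all genes were called either way. Over the whole course, in round spermatids against spermatogonia, 13 were higher and 27 lower, or 28.3 and 58.7%, beside 39.5% and 39.7%, with 79.2% of all genes called either way. The replicates of the 2 stages did not overlap for 37, 37 and 42 of the 46 members in these comparisons, beside 79.9, 78.2 and 85.2% of all genes. Median log2 fold changes were 0.052 for the members and -0.32 for all genes in spermatocytes against spermatogonia, -0.57 and 0.19 in round spermatids against spermatocytes, and -0.50 and 0.0029 in round spermatids against spermatogonia. Changes past 2-fold in called members numbered 9 up and 3 down, 7 up and 17 down, and 9 up and 15 down, beside 17.3 and 30.9%, 35.4 and 24.7%, and 30.9 and 26.7% of all genes. The median size of the log2 fold change was 0.70, 1.06 and 1.02 over the members and 1.004, 1.31 and 1.21 over all genes. The comparisons share libraries, so their counts are not independent of each other.

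The split between stages depended on the scaling in the first comparison, for the members and for all genes. In spermatocytes against spermatogonia the members split into 18 higher and 14 lower with TMM factors, 22 and 11 with RLE size factors, 11 and 22 without factors, and 8 and 20 on log2 (TPM + 1). Of all genes, 29.3 and 44.0% were called higher and lower with TMM, and 33.4 and 38.6% with RLE. The shares were 20.1 and 54.8% without factors, and 15.2 and 49.4% on log2 (TPM + 1). The TMM factors ran from 0.774 in spermatocytes 3 to 1.26 in round spermatids 2. The median of all genes was -0.32 with TMM, -0.14 with RLE and -0.74 without factors in that comparison, and the members' median lay 0.38, 0.37 and 0.38 above it. On log2 (TPM + 1) that gap was 0.0076, and without a filter it was -0.16. With 0.1 added to TPM in place of 1 the gap was 0.31, under the same filter as the 0.0076. At the spermatid step (round spermatids against spermatocytes) the split was 8 and 28 with TMM and 14 and 19 without factors. The shares of all genes were 42.7 and 36.4% with TMM and 51.0 and 26.7% without factors. The members' median minus that of all genes was -0.76 and -0.74 there. In round spermatids against spermatogonia the split was 13 and 27 with TMM and 8 and 31 on log2 (TPM + 1). The shares of all genes were 39.5 and 39.7%, and 26.1 and 49.2%, in these 2 settings. With the 3 near-identical spermatogonia libraries summed into 1, fewer members and fewer genes were called. The members' median minus that of all genes was then 0.37, -0.80 and -0.54 in the 3 comparisons. Without round spermatids 2 the splits were 20 and 16, 9 and 31, and 13 and 27. The shares of all genes were 30.9 and 45.2%, 43.1 and 37.4%, and 41.2 and 40.0%.

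**Figure D2:**
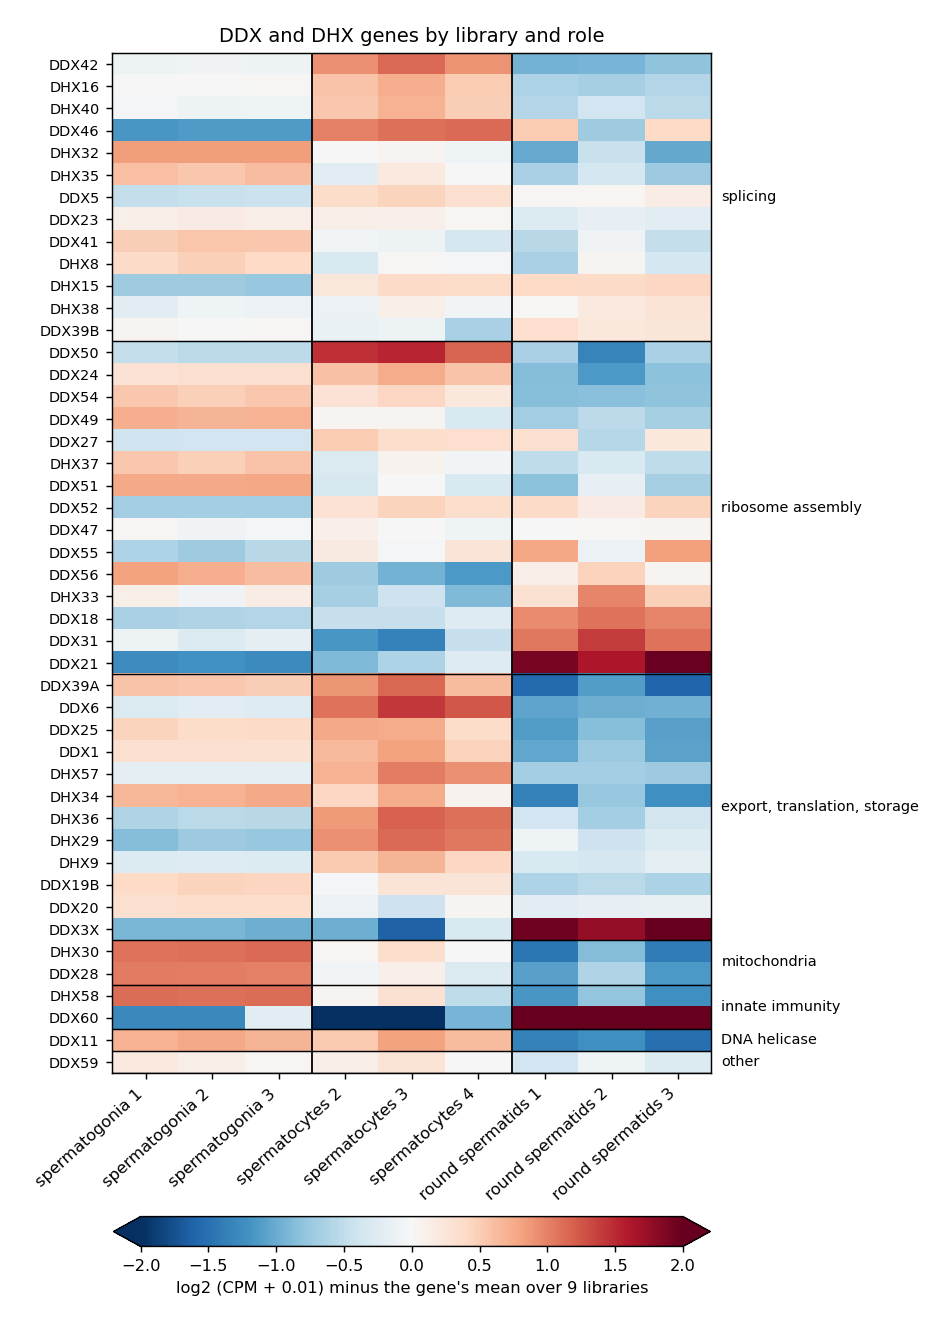
Level of each of the 46 members in each library, as log2 (CPM + 0.01) minus the gene's mean over the 9 libraries (colour scale), grouped by role; columns are libraries in stage order. Most rows of the export, translation and storage block are red in spermatocytes and blue in round spermatids, whereas DDX21, DDX3X and DDX60 are reddest in the 3 round spermatid libraries.

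**Figure D3:**
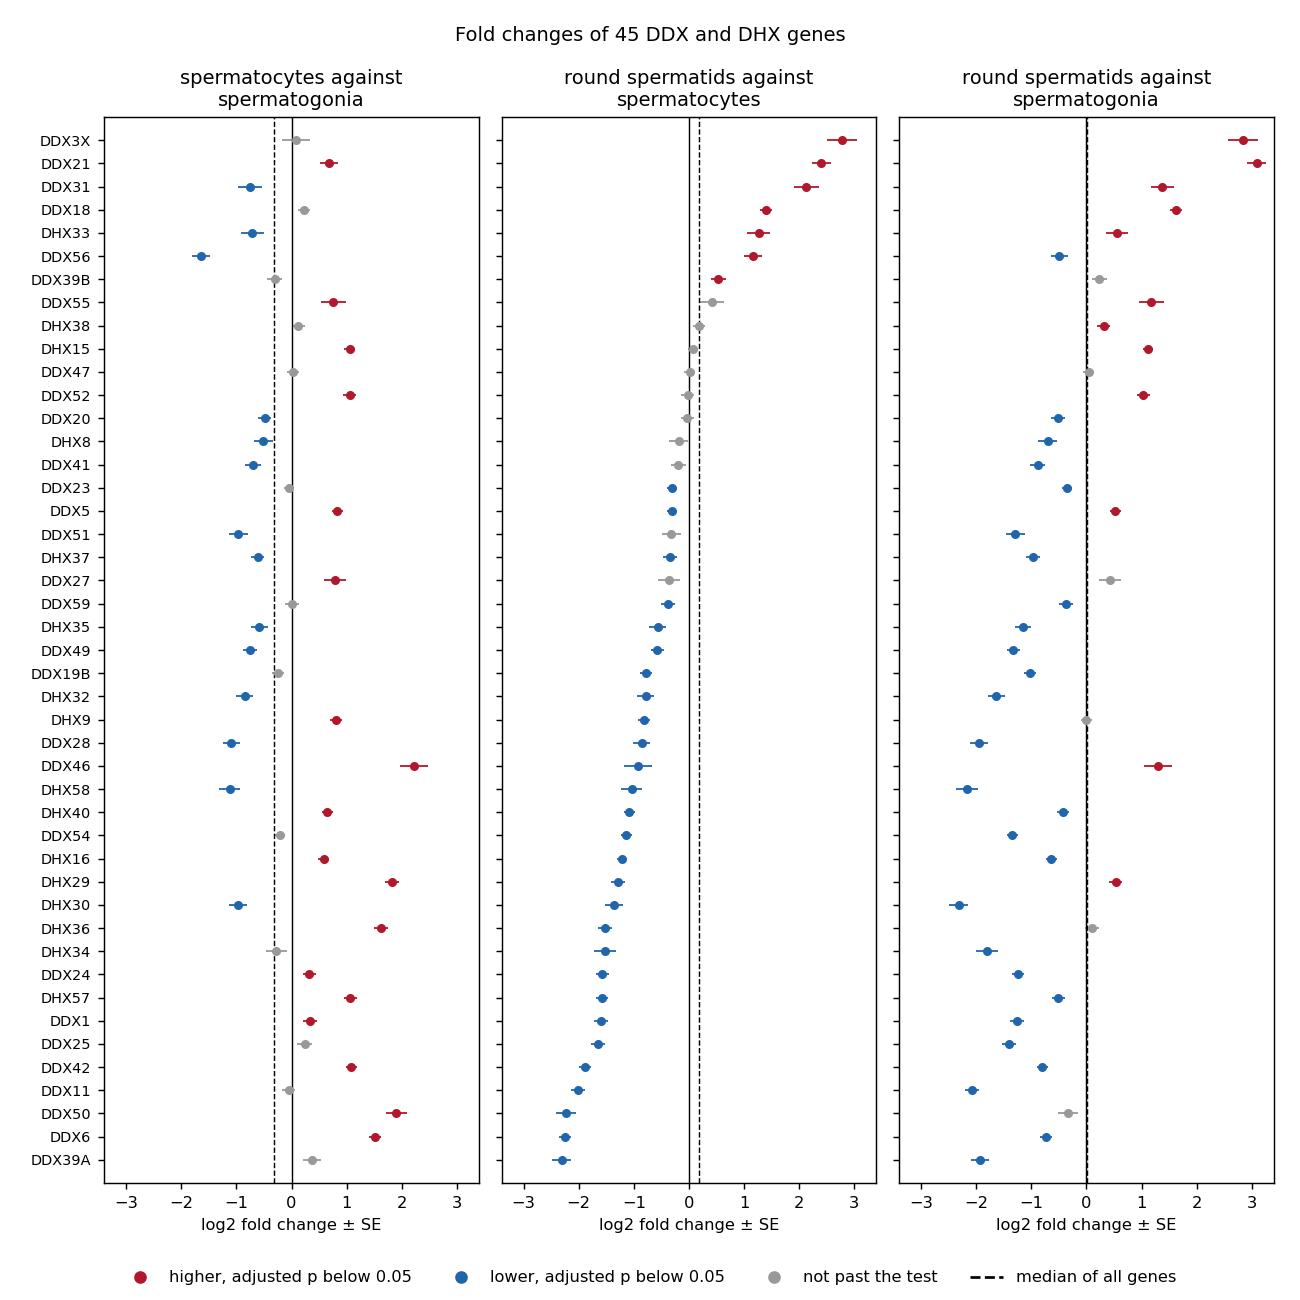
Log2 fold change ± standard error (horizontal axis) of 45 members in the 3 comparisons, without DDX60, whose counts are near 0 at 2 stages; red marks members higher, blue members lower and grey members not past the adjusted p of 0.05, and the dashed line marks the median of all genes tested. In the middle panel 28 members lie to the left as called and 7 of the 8 called higher are drawn to the right, led by DDX3X at 2.77.

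Helicases of the spliceosome were called in both directions in meiosis and mostly lower at the spermatid step. Of the 13 measured, 6 were higher and 4 lower in spermatocytes against spermatogonia, 1 higher and 8 lower in round spermatids against spermatocytes, and 4 higher and 8 lower in round spermatids against spermatogonia, with medians of 0.13, -0.31 and -0.43. As shares these are 46.2 and 30.8%, 7.69 and 61.5%, and 30.8 and 61.5%, beside 29.3 and 44.0%, 42.7 and 36.4%, and 39.5 and 39.7% of all genes. DDX46, which remodels the U2 particle before the first splicing step, had 61.6, 63.0 and 62.7 CPM in spermatogonia, 276, 297 and 301 in spermatocytes, and 195, 84.0 and 183 in round spermatids. All spermatocyte values lay above all others, and round spermatids 2 lay far below the other spermatid libraries. The gene was 4.67-fold higher in spermatocytes than in spermatogonia (log2 fold change 2.22 ± 0.260 SE, edgeR adjusted p = 2.97e-05), the largest rise in the family there, and 1.90-fold lower in round spermatids than in spermatocytes (-0.92 ± 0.250, edgeR adjusted p = 0.00604). Without round spermatids 2 that fall was -0.63 ± 0.0721 (edgeR adjusted p = 3.4e-05). Round spermatids remained above spermatogonia, with a log2 fold change of 1.30 ± 0.253 (edgeR adjusted p = 0.000752).

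DDX42, another helicase linked to the U2 particle, peaked in spermatocytes. It had 82.5, 84.3 and 82.5 CPM in spermatogonia, 167, 195 and 166 in spermatocytes, and 45.9, 46.4 and 50.6 in round spermatids. The 3 stages did not overlap. Its fall in round spermatids against spermatocytes was 3.69-fold (-1.89 ± 0.104 SE, edgeR adjusted p = 6.1e-08), after a 2.12-fold rise in meiosis (1.08 ± 0.102, edgeR adjusted p = 7.43e-06). DDX42 overlaps FTSJ3 in the annotation and the use of strand in counting is not given, so reads of the neighbours may mix.

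DHX15, which takes the spent spliceosome apart, rose in meiosis and overlapped that level in spermatids. It had 49.2, 49.2 and 47.2 CPM in spermatogonia, 93.4, 105 and 103 in spermatocytes, and 106, 104 and 107 in round spermatids. Only the spermatogonia lay apart from the other libraries. DHX15 was 2.07-fold higher in spermatocytes than in spermatogonia (1.05 ± 0.0928 SE, edgeR adjusted p = 4.9e-06) and 2.17-fold higher in round spermatids than in spermatogonia (1.12 ± 0.0929, edgeR adjusted p = 1.41e-06). Between round spermatids and spermatocytes the log2 difference was 0.068 ± 0.0917 (edgeR adjusted p = 0.511), and its sign turned with RLE factors and on TPM.

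DDX5 had 708, 719 and 727 CPM in spermatogonia, 1265, 1343 and 1229 in spermatocytes, and 995, 1013 and 1086 in round spermatids. No 2 stages overlapped. It was higher in spermatocytes than in spermatogonia (0.83 ± 0.0952 SE, edgeR adjusted p = 2.56e-05), though not on TPM (0.31, limma adjusted p = 0.171). It was lower by the test in round spermatids than in spermatocytes (-0.31 ± 0.0947, edgeR adjusted p = 0.0114), though not with only these 2 stages in the fit (adjusted p = 0.0852), and the sign turned without scaling factors. Against spermatogonia round spermatids were higher (0.52 ± 0.0948, edgeR adjusted p = 0.000468), with the sign turned on TPM.

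DDX39B, which acts in splicing and hands finished messages to export, moved against its near copy DDX39A. It had 178, 172 and 174 CPM in spermatogonia, 156, 158 and 109 in spermatocytes, and 215, 198 and 201 in round spermatids. Spermatids lay above both other stages in every library. The rise in round spermatids against spermatocytes passed the test (0.53 ± 0.139 SE, edgeR adjusted p = 0.00471) but not on TPM (0.46, limma adjusted p = 0.0603). The difference between round spermatids and spermatogonia did not pass (0.23 ± 0.139, edgeR adjusted p = 0.15), passed without spermatocytes 4 (adjusted p = 0.0268) and was negative on TPM. Spermatocytes against spermatogonia gave -0.30 ± 0.139 (edgeR adjusted p = 0.0695), and -0.39 without spermatocytes 3 (adjusted p = 0.04). Reads of such near copies may be shared between them.

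DHX32 and DHX35 were called lower at both steps. DHX32, a relative of DHX15, was lower in spermatocytes than in spermatogonia (-0.85 ± 0.150 SE, edgeR adjusted p = 0.000495) and lower again in round spermatids than in spermatocytes (-0.79 ± 0.150, edgeR adjusted p = 0.000631). For DHX35 the log2 fold changes at the same steps were -0.58 ± 0.151 and -0.57 ± 0.153. Its call in meiosis was lost with RLE factors, without a filter, without the 50 most abundant genes and with the spermatogonia libraries summed, and its call at the spermatid step without factors and on TPM. The spermatid call of DHX32 was lost without factors (-0.30). DDX41 and DHX8, which acts late in splicing, were lower in spermatocytes than in spermatogonia and lower in round spermatids than in spermatogonia, and did not pass the test in round spermatids against spermatocytes. The fall of DHX8 in meiosis (-0.51 ± 0.170) did not pass without spermatogonia 2 (-0.49) or spermatocytes 2 (-0.42). DHX16, which acts just before the first splicing step, and DHX40 were highest in spermatocytes, with log2 rises of 0.58 ± 0.0950 and 0.65 ± 0.105 over spermatogonia and falls of -1.22 ± 0.0962 and -1.08 ± 0.106 in round spermatids against spermatocytes. Both rises were lost without factors (0.16 and 0.23) and on log2 (TPM + 1) (0.052 and 0.12), and that of DHX16 also with the spermatogonia libraries summed. DDX23, a helicase of the U5 particle, was lower in round spermatids than in spermatocytes by -0.30 ± 0.0896, with the sign turned without scaling factors and the call lost on TPM, with only these 2 stages and with the spermatogonia libraries summed. DHX38 was higher in round spermatids than in spermatogonia by 0.31 ± 0.115, a call lost without any 1 spermatogonia library or round spermatids 3 (0.24 to 0.33) and a sign turned on TPM.

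Nucleolar helicases of ribosome assembly were called in both directions at each step. Of the 15 measured, 6 were higher and 6 lower in spermatocytes against spermatogonia, 5 and 5 in round spermatids against spermatocytes, and 6 and 6 in round spermatids against spermatogonia, with medians of 0.028, -0.025 and 0.043. In the last comparison 40.0% were called each way, close to the 39.5 and 39.7% of all genes, and in the first 2 the shares were 40.0% each way beside 29.3 and 44.0%, and 33.3% each way beside 42.7 and 36.4%. DDX21, which links ribosomal RNA transcription and processing, had 12.1, 12.5 and 12.0 CPM in spermatogonia, 15.6, 18.9 and 24.3 in spermatocytes, and 108, 88.5 and 114 in round spermatids. The stages were ordered without overlap. Round spermatids stood 8.48-fold above spermatogonia (3.08 ± 0.174 SE, edgeR adjusted p = 1.16e-07) and 5.28-fold above spermatocytes (2.40 ± 0.170, edgeR adjusted p = 3.3e-07). The step into meiosis was smaller, at 0.68 ± 0.164 (edgeR adjusted p = 0.00337), and did not pass with the spermatogonia libraries summed or without scaling factors.

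DDX50, the close relative of DDX21 in the nucleolus, also rose in meiosis but fell at the spermatid step. It had 35.1, 33.6 and 34.1 CPM in spermatogonia, 135, 140.4 and 109 in spermatocytes, and 31.2, 19.4 and 31.1 in round spermatids. The spermatocyte libraries lay apart from all others. DDX50 rose 3.74-fold in spermatocytes against spermatogonia (1.90 ± 0.184 SE, edgeR adjusted p = 8.72e-06) and was 4.70-fold lower in round spermatids than in spermatocytes (-2.23 ± 0.186, edgeR adjusted p = 1.14e-06). The 2 genes are neighbours on chromosome 14 of Sscrofa11.1, DDX50 at 71989137 to 72030996 and DDX21 at 72039985 to 72063778.

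DDX18, a nucleolar helicase of the large subunit, was raised in spermatids. It had 18.5, 19.1 and 19.2 CPM in spermatogonia, 21.0, 21.1 and 24.2 in spermatocytes, and 56.1, 61.7 and 56.8 in round spermatids. The spermatid values were all above the rest. The log2 fold change was 1.40 ± 0.106 SE in round spermatids against spermatocytes (edgeR adjusted p = 5.61e-07) and 1.62 ± 0.106 in round spermatids against spermatogonia (edgeR adjusted p = 2.89e-07).

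DDX31 and DDX56 were lowest in spermatocytes. DDX31 had 13.2, 11.7 and 12.3 CPM in spermatogonia, 6.27, 5.52 and 10.3 in spermatocytes, and 29.5, 37.1 and 30.0 in round spermatids. DDX56 had 17.4, 16.4 and 15.2 CPM in spermatogonia, 6.06, 5.15 and 4.44 in spermatocytes, and 10.9, 13.7 and 10.3 in round spermatids. Neither gene's stages overlapped, and spermatids exceeded spermatogonia for DDX31 but not for DDX56. DDX56 showed the family's largest fall into meiosis (-1.65 ± 0.162 SE, edgeR adjusted p = 9.84e-06) and came back by 1.16 ± 0.161 in round spermatids against spermatocytes (edgeR adjusted p = 6.36e-05). DDX31 was 4.37-fold higher in round spermatids than in spermatocytes (2.13 ± 0.220, edgeR adjusted p = 6.16e-06) after a fall of -0.75 ± 0.214 in meiosis (edgeR adjusted p = 0.0089), which did not pass with only those 2 stages or with the spermatogonia libraries summed.

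DDX24 and DDX51 were both lower in spermatids than in spermatogonia, by different routes. DDX24 had 782, 796 and 799.9 CPM in spermatogonia, 958, 1069.5 and 951 in spermatocytes, and 352, 289 and 363 in round spermatids, so that spermatids lay below every other library. It fell 2.97-fold in round spermatids against spermatocytes (-1.57 ± 0.116 SE, edgeR adjusted p = 4.67e-07). Its small rise in meiosis (0.32 ± 0.113, edgeR adjusted p = 0.0243) did not pass without any 1 of the spermatogonia libraries or without spermatocytes 3 (adjusted p 0.0706 to 0.0823), and its sign turned without scaling factors and on TPM. DDX51 had 33.9, 33.8 and 34.2 CPM in spermatogonia, 16.0, 20.1 and 16.1 in spermatocytes, and 11.4, 17.8 and 12.6 in round spermatids. Its fall came in meiosis (-0.96 ± 0.172, edgeR adjusted p = 0.000515), and spermatocytes and spermatids overlapped.

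Among the rest of the nucleolar set, DDX52 rose 2.08-fold in spermatocytes against spermatogonia and was 2.04-fold above spermatogonia in round spermatids. DDX27 and DDX55 rose in meiosis by 0.79 ± 0.196 and 0.76 ± 0.223 on the log2 scale, and neither passed with the spermatogonia libraries summed, without factors or on TPM. DDX49 and DHX37, a helicase of the small subunit processome, were lower at each later stage, DHX37 by -0.62 ± 0.124 in meiosis, and the spermatid step of DDX49 did not pass without factors. The further fall of DHX37 in round spermatids against spermatocytes (-0.35 ± 0.125) did not pass without spermatocytes 3 or round spermatids 1 or 3, and turned sign without scaling factors. DDX54 was 2.19-fold lower in round spermatids than in spermatocytes. DHX33, at 2.01 to 7.36 CPM in all libraries, was 2.40-fold higher in round spermatids than in spermatocytes. DDX47, singled out after its values were seen, was the steadiest member on the CPM scale, with 22.6 ± 0.748, 23.0 ± 1.48 and 23.3 ± 0.541 CPM at the 3 stages (SD, n = 3 each). On the TPM scale it was not steady, at 7.104 ± 0.1897, 5.031 ± 0.1442 and 4.922 ± 1.502 TPM in the same order. Spermatogonia there lay above spermatocytes beyond the spread.

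**Figure D4:**
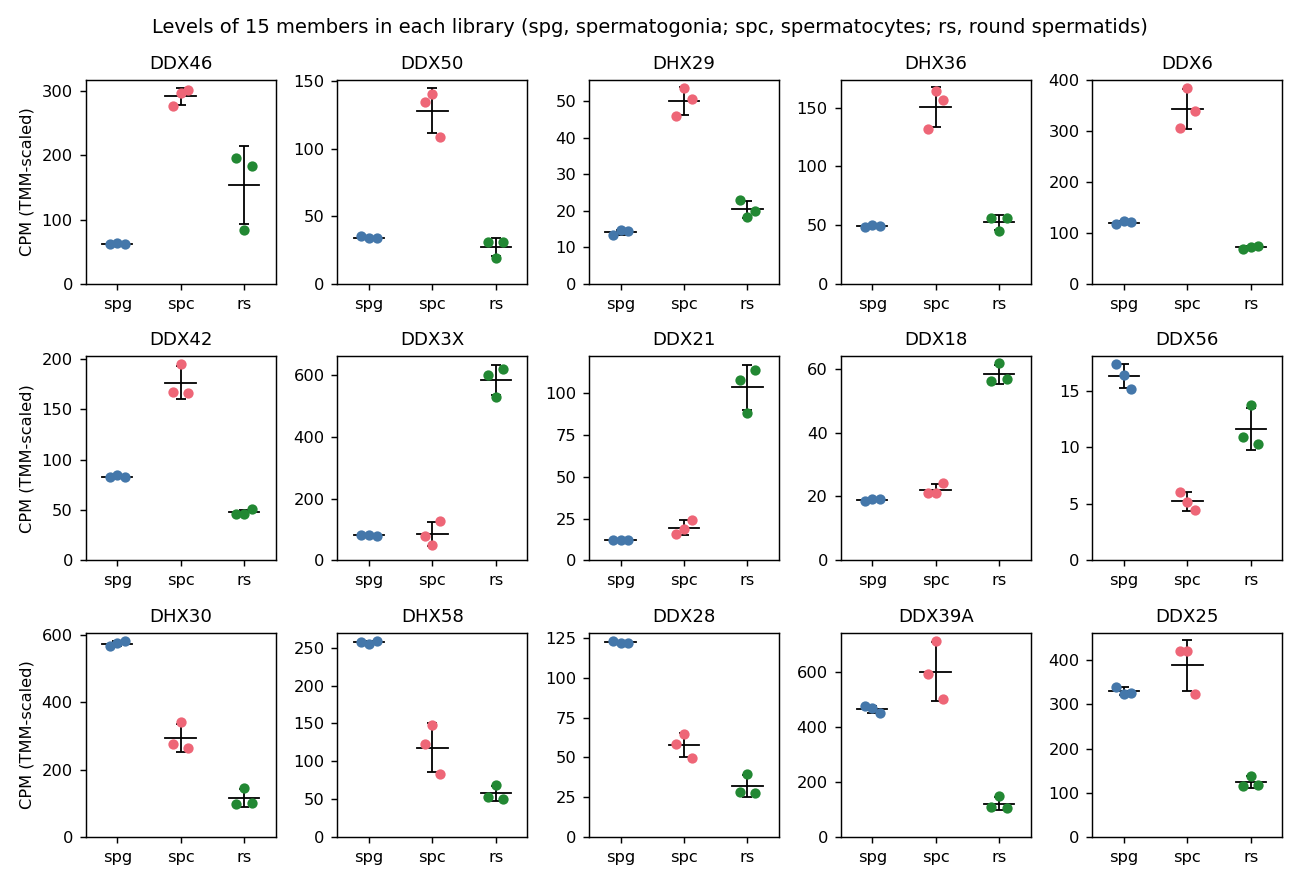
Level of 15 members (CPM on TMM-scaled libraries, vertical axis from 0) in spermatogonia (spg), spermatocytes (spc) and round spermatids (rs); points are libraries, the long bar is the mean and the whiskers are ± SD (n = 3). DDX46, DDX50, DHX29, DHX36, DDX6 and DDX42 peak in spermatocytes, DDX3X, DDX21 and DDX18 in round spermatids, and DDX56, DHX30, DHX58 and DDX28 in spermatogonia.

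Helicases listed under export, translation and storage, with DDX1, DDX20 and DHX34 of other roles among them, were mostly lower at the spermatid stage. Of the 12 measured, 6 were higher and 1 lower in spermatocytes against spermatogonia, 1 higher and 10 lower in round spermatids against spermatocytes, and 2 higher and 8 lower in round spermatids against spermatogonia, with medians of 0.36, -1.52 and -0.63. The shares were 50 and 8.33%, 8.33 and 83.3%, and 16.7 and 66.7%, beside 29.3 and 44.0%, 42.7 and 36.4%, and 39.5 and 39.7% of all genes. DDX25, the gonadotropin-regulated testis helicase that carries and helps translate spermatid messages, had 339.8, 323 and 326 CPM in spermatogonia, 421, 421 and 322 in spermatocytes, and 116, 139 and 118 in round spermatids. Spermatids lay below all other libraries, and spermatocytes 4 lay beside the lowest spermatogonia library. Its transcript was 3.13-fold lower in round spermatids than in spermatocytes (-1.65 ± 0.131 SE, edgeR adjusted p = 8.05e-07) and 2.66-fold lower than in spermatogonia (-1.41 ± 0.130, edgeR adjusted p = 3.08e-06). The difference between spermatocytes and spermatogonia did not pass (0.24 ± 0.128, edgeR adjusted p = 0.118). It passed under 6 of 23 alternatives, among them RLE factors (0.42) and leaving out spermatocytes 4 (0.36, adjusted p = 0.014), and its sign turned without scaling factors and on TPM.

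DDX6, the helicase of P-bodies and of stored maternal and germ cell messages, had 118, 123 and 121 CPM in spermatogonia, 306, 386 and 339.8 in spermatocytes, and 69.3, 73.6 and 74.4 in round spermatids. No libraries overlapped between stages. It was 2.85-fold higher in spermatocytes than in spermatogonia (1.51 ± 0.108 SE, edgeR adjusted p = 1.61e-06) and 4.75-fold lower in round spermatids than in spermatocytes (-2.25 ± 0.111, edgeR adjusted p = 2.97e-08). Round spermatids also lay below spermatogonia, at -0.74 ± 0.106 (edgeR adjusted p = 8.86e-05).

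DDX3X, the X-linked helicase that helps start translation on structured messages, was the exception of this group. It had 82.5, 82.6 and 79.0 CPM in spermatogonia, 79.7, 51.1 and 126 in spermatocytes, and 603, 529.8 and 621 in round spermatids. The 3 spermatocyte libraries were scattered around the spermatogonia, and every spermatid library stood far above. Round spermatids exceeded spermatocytes 6.81-fold (2.77 ± 0.271 SE, edgeR adjusted p = 3.95e-06) and spermatogonia 7.18-fold (2.84 ± 0.272, edgeR adjusted p = 3.94e-06). Spermatocytes and spermatogonia differed by 0.076 ± 0.254 (edgeR adjusted p = 0.797), which turned sign without scaling factors, on TPM and without spermatocytes 4 (-0.31).

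DHX29 and DHX36 peaked in meiosis. DHX29, which helps the scanning ribosome through structured leaders, had 13.3, 14.6 and 14.4 CPM in spermatogonia, 45.8, 53.4 and 50.5 in spermatocytes, and 23.0, 18.2 and 20.01 in round spermatids. DHX36, which unwinds G-quadruplexes, had 48.1, 49.9 and 49.3 CPM in spermatogonia, 132, 164 and 156 in spermatocytes, and 55.9, 45.3 and 56.2 in round spermatids. Both stood apart in spermatocytes, and for DHX36 the other stages overlapped. In spermatocytes against spermatogonia DHX29 rose 3.53-fold (1.82 ± 0.124 SE, edgeR adjusted p = 1.34e-06) and DHX36 3.07-fold (1.62 ± 0.125, edgeR adjusted p = 2.36e-06). Both then fell in round spermatids against spermatocytes, DHX29 by -1.29 ± 0.122 (edgeR adjusted p = 3.1e-06) and DHX36 by -1.52 ± 0.125 (edgeR adjusted p = 1.02e-06). DHX29 remained above spermatogonia in round spermatids (0.53 ± 0.121, edgeR adjusted p = 0.00221), with the sign turned on TPM, and DHX36 differed by 0.10 ± 0.122 (edgeR adjusted p = 0.482), which on TPM was a called fall of -0.50 (limma adjusted p = 0.0207).

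DHX9, a helicase of transcription, translation and double-stranded RNA, had 291, 294 and 291 CPM in spermatogonia, 505, 564 and 466 in spermatocytes, and 284, 279 and 311 in round spermatids. On the CPM scale spermatocytes lay above both other stages, which overlapped. The log2 fold changes were 0.81 ± 0.103 SE in spermatocytes against spermatogonia (edgeR adjusted p = 5.48e-05) and -0.81 ± 0.103 in round spermatids against spermatocytes (edgeR adjusted p = 3.13e-05). Between round spermatids and spermatogonia the fold was 0.997 (edgeR adjusted p = 0.974), with a sign that turned under RLE factors and without factors. On log2 (TPM + 1) the rise in meiosis did not pass (0.28, limma adjusted p = 0.198), and round spermatids were called lower than spermatogonia (-0.61, limma adjusted p = 0.0102).

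DDX1, which works with the RNA ligase of transfer RNA splicing, had 97.9, 97.7 and 96.8 CPM in spermatogonia, 124, 138 and 108 in spermatocytes, and 38.1, 46.8 and 37.5 in round spermatids. The stages did not overlap and spermatids were lowest. It fell 3.02-fold in round spermatids against spermatocytes (-1.60 ± 0.127 SE, edgeR adjusted p = 8.09e-07). Its rise in meiosis (0.34 ± 0.124, edgeR adjusted p = 0.0293) did not pass without any 1 spermatogonia library or without spermatocytes 2 or 3 (adjusted p 0.0628 to 0.0949), and turned sign without scaling factors and on TPM.

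DDX20, the gemin of the SMN complex that loads spliceosomal particles, had 181, 185 and 185 CPM in spermatogonia, 133, 109 and 151 in spermatocytes, and 124, 129.5 and 131 in round spermatids. Spermatogonia were highest, and the later stages overlapped. It was lower in spermatocytes than in spermatogonia (-0.49 ± 0.121 SE, edgeR adjusted p = 0.00417), a call lost without a filter, with these 2 stages only, without the 50 most abundant genes and with the spermatogonia libraries summed (-0.55 to -0.25). Round spermatids were lower than spermatogonia by -0.52 ± 0.121 (edgeR adjusted p = 0.00245) and differed from spermatocytes by -0.033 ± 0.121 (edgeR adjusted p = 0.814), a sign that turned without scaling factors and without spermatocytes 4.

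DDX19B and DDX39A belong to the export of messages through the nuclear pore. DDX19B had 66.1, 68.3 and 67.5 CPM in spermatogonia, 49.6, 60.9 and 60.4 in spermatocytes, and 32.6, 34.7 and 32.4 in round spermatids. DDX39A had 476, 469 and 452 CPM in spermatogonia, 593, 714 and 502 in spermatocytes, and 110.1, 148 and 107 in round spermatids. Spermatids were lowest for both without overlap. DDX19B was 1.71-fold lower in round spermatids than in spermatocytes (-0.78 ± 0.108 SE, edgeR adjusted p = 6.25e-05). DDX39A was 4.96-fold lower (-2.31 ± 0.166, edgeR adjusted p = 3.8e-07), the largest fall of the family at that step, and 3.83-fold lower in round spermatids than in spermatogonia (-1.94 ± 0.164, edgeR adjusted p = 1.65e-06). Neither passed in spermatocytes against spermatogonia, DDX19B at -0.24 ± 0.107 (edgeR adjusted p = 0.064) and DDX39A at 0.37 ± 0.159 (edgeR adjusted p = 0.0541). The sign of DDX39A turned there without scaling factors and on TPM. Under 8 of 23 alternatives DDX39A was called higher, RLE factors (0.56) and DESeq2 among them, and under 9 of 23 DDX19B was called lower. Each passed without spermatocytes 4 or round spermatids 2, DDX39A at 0.49 and 0.38 and DDX19B at -0.28 and -0.24, and DDX19B also without spermatocytes 3 (-0.29). DHX34, of nonsense-mediated decay, and DHX57 fell in round spermatids against spermatocytes by -1.52 ± 0.195 and -1.58 ± 0.113.

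Close relatives within the family changed places, a comparison of pairs picked after their values were seen and therefore given without a test. The ratio of DDX39A to DDX39B on the TPM scale was 2.22 ± 0.0542 in spermatogonia, 3.58 ± 0.367 in spermatocytes and 0.497 ± 0.110 in round spermatids (SD, n = 3 each). DDX39A thus exceeded DDX39B in all 6 earlier libraries and lay below it in the 3 spermatid libraries, at ratios of 0.425, 0.623 and 0.442. The ratio of DDX50 to DDX21 was 2.60 ± 0.0968, 6.33 ± 1.97 and 0.241 ± 0.0339 TPM per TPM at the same stages. It was 7.98, 6.86 and 4.15 in spermatocytes 2, 3 and 4 and 0.267, 0.202 and 0.252 in round spermatids 1, 2 and 3, so no spermatid library came near the others. Library scaling cancels in such a ratio, whereas reads shared between the copies of a pair do not.

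**Figure D5:**
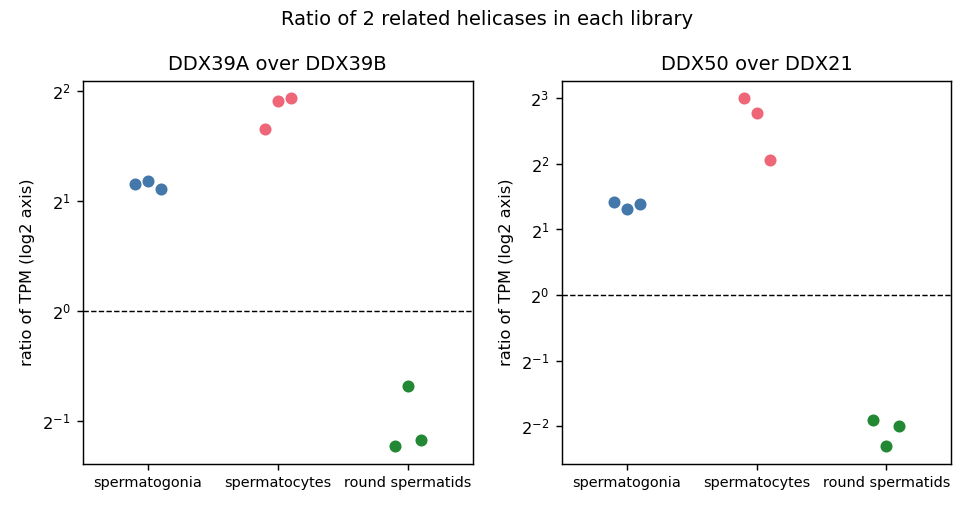
Ratio of the TPM of DDX39A over DDX39B (left) and DDX50 over DDX21 (right) in each library, on a log2 axis; points are libraries and the dashed line marks equal TPM. All 6 spermatogonia and spermatocyte points lie above the line and all 3 round spermatid points below it in both panels.

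The 2 mitochondrial members were called lower at every step, though DDX28 did not pass at the spermatid step without factors (-0.37). DHX30, which serves mitochondrial ribosome assembly and translation, had 566, 575 and 581 CPM in spermatogonia, 275, 341 and 265 in spermatocytes, and 97.8, 145 and 102 in round spermatids. DDX28, a helicase of the mitochondrial large subunit, had 124, 122 and 122 CPM in spermatogonia, 58.4, 64.7 and 49.8 in spermatocytes, and 28.4, 39.7 and 27.4 in round spermatids. The stages ran downwards without overlap in both, with round spermatids 2 the highest of its stage. In spermatocytes against spermatogonia the log2 fold changes were -0.97 ± 0.162 SE for DHX30 (edgeR adjusted p = 0.000346) and -1.09 ± 0.156 for DDX28 (edgeR adjusted p = 0.000119). For round spermatids against spermatocytes they were -1.35 ± 0.164 (edgeR adjusted p = 2.14e-05) and -0.86 ± 0.156 (edgeR adjusted p = 0.000462). Over the whole course DHX30 showed the largest fall of the family, at -2.32 ± 0.169 in round spermatids against spermatogonia (edgeR adjusted p = 5.67e-07). DDX28 lies within an overlap with DUS2, which limits its value as for DDX42.

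The 2 members of antiviral sensing were DHX58, which was lowest in spermatids, and DDX60, whose counts were near 0 at 2 stages. DHX58, the regulator of RIG-I-like sensing known as LGP2, had 257, 255 and 259 CPM in spermatogonia, 123, 147 and 83.6 in spermatocytes, and 53.1, 68.5 and 50.8 in round spermatids. It was ordered downwards without overlap. DHX58 was 2.18-fold lower in spermatocytes than in spermatogonia (-1.12 ± 0.193 SE, edgeR adjusted p = 0.00041) and 2.05-fold lower in round spermatids than in spermatocytes (-1.04 ± 0.193, edgeR adjusted p = 0.000535). DDX60, an interferon-induced antiviral factor, had 3, 3 and 7 counts in spermatogonia, 0, 1 and 3 in spermatocytes, and 47, 83 and 75 in round spermatids, or at most 1.37 CPM. It passed the filter only through the spermatid libraries and was not tested with a minimum of 1 CPM, so no p or fold is given, though it is counted above among the members higher in spermatids. The sensor gene RIGI, listed under that symbol and so outside the family's rule, had 23.2, 25.8 and 24.6 CPM in spermatogonia, 17.0, 19.9 and 21.0 in spermatocytes, and 40.8, 27.1 and 43.4 in round spermatids. A list of 8 interferon response genes summed to 155 to 162 CPM in spermatogonia, 66.8 to 78.2 in spermatocytes and 405 to 413 in round spermatids. In round spermatids against spermatocytes 6 of them were higher and 1 lower, beside 42.7 and 36.4% of all genes. The part of this list in the helicase values was not tested.

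The remaining 2 members act elsewhere. DDX11, a DNA helicase of sister chromatid cohesion, had 28.1, 29.1 and 27.7 CPM in spermatogonia, 24.9, 30.2 and 26.8 in spermatocytes, and 6.75, 7.41 and 6.07 in round spermatids. The earlier stages overlapped and spermatids lay far below. It fell 4.05-fold in round spermatids against spermatocytes (-2.02 ± 0.126 SE, edgeR adjusted p = 1.36e-07) and 4.20-fold against spermatogonia (-2.07 ± 0.126, edgeR adjusted p = 1.77e-07). DDX59 was lower in round spermatids than in spermatocytes by -0.38 ± 0.129 (edgeR adjusted p = 0.0192), a sign that turned without scaling factors and a call that was lost without spermatocytes 3 or round spermatids 1 or 3.

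Sorted by course, 13 of the 46 members had spermatocytes above both other stages, beside 19.5% of all genes tested, and 22 had round spermatids below both, beside 26.0%. Spermatogonia were above both other stages in 12 members, beside 21.5% of all genes, and below both in 7, beside 13.2%. Round spermatids were above both in 6 members, beside 30.1%, and spermatocytes below both in 3 (DDX31, DDX56 and DHX33), beside 26.2%. The 6 with spermatids on top were DDX3X, DDX18, DDX21, DDX31, DDX60 (which rests on the filter) and DHX33. The rise of DHX33 over spermatogonia was lost without any 1 spermatogonia library or round spermatids 2 (0.33 to 0.58), and the fall of DDX56 over the whole course without spermatogonia 1 or round spermatids 1 or 3 (-0.45 to -0.42). A course held under every alternative except the test against a 1.5-fold change for 6 of the meiotic peaks (DDX42, DDX46, DDX50, DDX6, DHX29 and DHX36), for 3 of the spermatid peaks (DDX18, DDX21 and DDX3X) and for 8 of those highest in spermatogonia (DDX28, DDX41, DDX49, DDX51, DHX30, DHX32, DHX37 and DHX58). Such a count was not made over all genes.

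Helicases outside the family and the cofactors that guide these enzymes were counted beside it. Of 21 other genes listed as helicases, among them the DNA translocase FANCM, 10 were higher and 5 lower in spermatocytes against spermatogonia, 5 and 12 in round spermatids against spermatocytes, and 7 and 12 in round spermatids against spermatogonia. The shares were 47.6 and 23.8%, 23.8 and 57.1%, and 33.3 and 57.1%, beside 29.3 and 44.0%, 42.7 and 36.4%, and 39.5 and 39.7% of all genes. In meiosis FANCM (2.37 ± 0.164 SE) and HELZ (2.06 ± 0.231) rose most and MOV10 (-2.58 ± 0.152) and SKIC2 (-1.60 ± 0.195), a helicase of the cytoplasmic exosome, fell most. At the spermatid step the antiviral sensor IFIH1 (3.57 ± 0.216) and the translation helicase EIF4A1 (3.06 ± 0.145) led the rises over spermatocytes, and FANCM (-2.87 ± 0.168) was among the largest falls. Over the whole course TDRD9, of the piRNA pathway, and SNRNP200, of the spliceosome, fell most (-2.79 ± 0.201 and -2.08 ± 0.140 in round spermatids against spermatogonia). EIF4A1 had 133, 129 and 128 CPM in spermatogonia, 61.2, 57.5 and 59.7 in spermatocytes, and 448, 613 and 431 in round spermatids, a course without overlap.

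Of 36 cofactors found, 20 were higher and 12 lower in spermatocytes against spermatogonia, 7 and 22 in round spermatids against spermatocytes, and 13 and 19 in round spermatids against spermatogonia. These were 55.6 and 33.3%, 19.4 and 61.1%, and 36.1 and 52.8%, beside 29.3 and 44.0%, 42.7 and 36.4%, and 39.5 and 39.7% of all genes. GPATCH4 (3.05 ± 0.327 SE) rose most in meiosis, and MAVS (-1.70 ± 0.154), the adaptor of RNA sensing, and GPKOW (-1.56 ± 0.191), a partner of DHX16, fell most. NKRF, a partner of DHX15, rose most in round spermatids against spermatocytes (3.80 ± 0.377), followed by the antiviral protein ZC3HAV1 (3.43 ± 0.226). FAM98B (-2.58 ± 0.214), which shares the RNA ligase complex with DDX1, and CNOT1 (-2.48 ± 0.165), the deadenylase scaffold bound by DDX6, fell most. CNOT1 had 1138, 1221 and 1164 CPM in spermatogonia, 1652, 2561 and 2171 in spermatocytes, and 338, 411 and 399 in round spermatids, in the same order of stages as DDX6. Over the whole course EDC4, a P-body scaffold, and GEMIN4, a partner of DDX20, fell most (-2.40 ± 0.162 and -1.82 ± 0.147 in round spermatids against spermatogonia). All calls of these lists are at an edgeR adjusted p below 0.05.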

How the data were processed

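Per the labels' protocols, total RNA went through a directional kit and was read in pairs on an Illumina HiSeq. The submitters' processing notes name the build Sscrofa11.1 and bcl2fastq. The aligner, the quantifier, the annotation and the use of strand are not given in these sources, so the 16 members that overlap another gene (12 a protein-coding one) and near copies such as DDX39A and DDX39B are uncertain. The authors deposited estimated counts per gene and TPM per gene, 1 column per library. Each deposited estimated count equals the TPM times a factor of the gene and one of the library, over 16193 genes checked, and the deposited TPM columns leave out 3.19 to 11.8% of the full scale. Spermatid columns carry the sample titles. Spermatocyte and spermatogonia columns are headed with the pachytene stage and the KIT receptor and the titles' numbers, and that match was made by what the headings mean, since no label states it. The other 6 library columns of 15 were not used.

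Estimated counts were rounded, filtered with filterByExpr, scaled with TMM factors and fitted over all 9 libraries with edgeR 4.0.16 (glmQLFit, glmQLFTest, common dispersion 0.0316) in R 4.3.3, with Benjamini-Hochberg adjustment over 16802 genes and calls below 0.05. The standard error is the size of the log2 fold change divided by the square root of F. Simulated counts were also put through the fit, and no result given here rests on that run. Alternatives were RLE or no factors, other filters, DESeq2 1.42.0, limma 3.58.1 on voom and log2 TPM values, a replicate block, 2 stages only, a test against a 1.5-fold change, dropping the 50 most abundant genes, summing the spermatogonia libraries and leaving out each library. Python 3.11.15, pandas 2.3.3, numpy 2.4.6 and matplotlib 3.10.9 made tables and plots.

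The members, role lists and tests were chosen with earlier results of these data known. Named were, per comparison, the 5 largest rises and falls among called members whose replicates did not overlap and whose upper stage averaged 10 CPM or more, a fixed set of members whatever their values, the 5 highest in TPM per stage, and up to 2 rises and 2 falls of each further list, of which some are not reported here. Same-numbered libraries of different stages did not deviate together (r from -0.0483 to 0.0283), so numbers were not taken as pairs. Positions come from a RefSeq table of Sscrofa11.1; no sequence is printed. Depth limits only DDX60 among the members.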

Additional observations from a re-analysis of the deposited data

How the results depend on the processing

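Of 32, 36 and 40 called members in spermatocytes against spermatogonia, round spermatids against spermatocytes and round spermatids against spermatogonia, 17, 26 and 30 held their call under all alternatives other than the test against a 1.5-fold change (22, or 21 for DDX60, which was not tested at a minimum of 1 CPM), and 29, 34 and 36 held it when each of the 9 libraries was left out in turn. The same counts were not made over all genes, and the causes were not tested.

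In spermatocytes against spermatogonia (18 higher, 14 lower), 11 were higher and 22 lower without normalization factors, beside 20.1 and 54.8% of all genes. On log2 (TPM + 1), log2 (TPM + 0.1) and log2 (TPM + 1) without a filter 8 were higher, beside 15.2, 15.3 and 13.1%. Past 1.5-fold 11 were higher and 6 lower, beside 19.9 and 32.8%. In round spermatids against spermatocytes 14 were higher without factors, beside 51.0% of all genes. In round spermatids against spermatogonia 8 were higher on log2 (TPM + 1), with or without a filter, and 7 on log2 (TPM + 0.1). The shares of all genes were 26.1, 23.2 and 25.7% in the same order. Of courses, spermatocytes above both numbered 8 without factors, 6 on each TPM scale and 7 past 1.5-fold. Of all genes, 19.5% had that course in the main fit, 11.8% without factors and 11.7% past 1.5-fold. On log2 (TPM + 1) the share was 11.3% with a filter and 9.81% without, so it fell along with the members. Round spermatids above both numbered 10 without factors, beside 32.95% of all genes, and spermatogonia above both 5 past 1.5-fold, beside 12.9%. Round spermatids below both numbered 14 without factors and 13 past 1.5-fold, beside 19.6 and 17.1% of all genes. Spermatocytes below both numbered 6 without factors and 1 past 1.5-fold, beside 34.9 and 19.3% of all genes. Spermatogonia below both numbered 2 on log2 (TPM + 1) and (TPM + 0.1), 3 on TPM without a filter and 3 past 1.5-fold. The shares of all genes were 4.61, 5.07, 4.03 and 7.75% in the same order.

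Signs turned as follows, in log2 units. In spermatocytes against spermatogonia without factors DDX24 was -0.10, DDX1 -0.085, DDX3X -0.32, DDX39A -0.055 and DDX25 -0.19. On log2 (TPM + 1), filtered or not, they were -0.20, -0.19, -0.52, -0.16 and -0.30 in the same order, and on log2 (TPM + 0.1) -0.20, -0.19, -0.54, -0.16 and -0.30. DDX3X was -0.017 with voom, -0.31 with the replicate block and -0.31 to 0.34 with single libraries left out, and DDX19B was 9.31e-05 without the 50 most abundant genes. In round spermatids against spermatocytes without factors DDX23 was 0.16, DDX20 0.42, DHX37 0.12, DDX59 0.094 and DDX5 0.15. DHX15 was -0.043 with RLE and with DESeq2, -0.14 without a filter and without the 50 most abundant genes, -0.019 on every TPM scale. DDX20 was 0.030 with a minimum of 1 CPM, 0.10 with the replicate block and -0.16 to 0.074 with single libraries left out. In round spermatids against spermatogonia on log2 (TPM + 1), filtered or not, DDX39B was -0.38, DHX38 -0.27, DHX29 -0.076, DHX36 -0.50, DDX5 -0.091 and DHX33 -0.048, and on log2 (TPM + 0.1) -0.38, -0.30, -0.086, -0.52, -0.091 and -0.083. DHX9 was 0.067 with RLE and DESeq2, 0.032 without factors, 0.015 without a filter, 0.036 at 1 CPM, 0.042 with 2 stages only, 0.034 without the 50 most abundant genes, and -0.062 to 0.025 with single libraries left out.

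The replicate block, for numbers that the data do not show to be pairs, gave 18 higher and 14 lower, 8 and 26, and 13 and 27 in the 3 comparisons, against 18 and 14, 8 and 28, and 13 and 27 without it. Of all genes, 27.6 and 43.3%, 42.1 and 35.4%, and 39.4 and 40.2% were called with the block. Depth limited only DDX60, at 0 to 7 counts in each spermatogonia and spermatocyte library.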

Other observations

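The DEAH-box and DEAD-box branches were also counted apart. Of the 16 DHX genes, 7 were higher and 7 lower in spermatocytes against spermatogonia, 1 higher and 12 lower in round spermatids against spermatocytes, and 4 higher and 10 lower in round spermatids against spermatogonia. Of the 30 DDX genes, 11 were higher and 7 lower, 7 higher and 16 lower, and 9 higher and 17 lower in the same comparisons. The shares were 43.8 and 43.8%, 6.25 and 75.0%, and 25.0 and 62.5% of the DHX genes, and 36.7 and 23.3%, 23.3 and 53.3%, and 30.0 and 56.7% of the DDX genes, beside 29.3 and 44.0%, 42.7 and 36.4%, and 39.5 and 39.7% of all genes. The single DHX gene above spermatocytes in round spermatids was DHX33, a nucleolar helicase. Median log2 fold changes in round spermatids against spermatocytes were -0.93 over the DHX genes and -0.34 over the DDX genes, and the difference between the branches was not tested.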
